A study of Homo sapiens with 2 samples.

Results

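The genes described here are 35 components and target genes of the NRF2 pathway, looked up by exact symbol in the deposited table of A549 cells. A line of its own was found for 33 of the 35, out of 12936 named genes. The members OSGIN1 and PIR occur only in loci shared with a neighbouring gene. A549 is an established human lung adenocarcinoma line. Values from 2 RNA-seq libraries were used, 1 labelled wild type and 1 labelled as a knockdown of MYOCD, the gene for the serum response factor coactivator myocardin. The treatment label of both samples gives Dox (doxycycline) for 72 h, whereas the series design describes the wild type cells as without treatment, so a difference in doxycycline cannot be told apart from the knockdown. The knockdown sample carries the title MYOCD-/- and the genotype MYOCD Knockdown, and the sources used here do not say which method was used. With 1 library per group there is no replicate error, no difference was tested, and "higher" or "lower" compares these libraries only.

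NRF2, encoded by NFE2L2, is a transcription factor that pairs with a small MAF protein such as MAFG and binds the antioxidant response element. KEAP1 holds NRF2 in the cytoplasm and presents it to a CUL3 ubiquitin ligase, so that NRF2 is short-lived until oxidants or electrophiles modify KEAP1. A549 cells are known to carry a KEAP1 mutation that weakens this control, and many NRF2 targets are known to be high in them without added stress. The mutation itself cannot be read from expression values. The targets make and recycle glutathione, run the thioredoxin system, supply NADPH, and reduce or conjugate reactive carbonyls, quinones and drugs.

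The antioxidant response element is shown first, since it is what the target genes are held to have in common. The core TGACNNNGC was searched on both strands of promoter windows from 250 bases before to 50 bases after RefSeq start sites (GRCh38.p14). A window was found for 28 of the 35 genes, and 11 of these 28 (39.3%) held the core, against 19.7% of the 8229 kept genes with a window and 16.1% of all 27305 genes with a window. The longer form of the element, the core followed by A, was held by 8 of 28 (28.6%), against 4.18% of kept genes and 3.94% of all genes. Several of these genes became known as NRF2 targets through such sites, so the shares are a description of the list and no independent evidence. The windows with the longer form are printed in the direction of transcription, 5′ to 3′, with the core in capitals. EPHX1 and MGST1 carry it on the gene's own strand and the other genes on the opposite strand, where its reverse complement is printed.
GCLM at chr1:93909445-93909474 (minus strand): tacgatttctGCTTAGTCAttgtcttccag
EPHX1 at chr1:225825266-225825295 (plus strand): tgagattggcTGACTTGGCaggactgtgca
MGST1 at chr12:16347135-16347164 (plus strand): ggggacatcgTGACAAAGCaaattgtctgg
TXNRD1 at chr12:104286920-104286949 (plus strand): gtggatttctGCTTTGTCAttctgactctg
GPX2 at chr14:64942848-64942877 (minus strand): acctgtttttGCTAAGTCAtcctggggatg
KEAP1 at chr19:10502783-10502812 (minus strand): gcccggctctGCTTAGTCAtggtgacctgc
CYP4F11 at chr19:15935004-15935033 (minus strand): ctgtgcccatGCTGTGTCAccctgagctgg
CBR1 at chr21:36069855-36069884 (plus strand): tgcgggttctGCAAAGTCAggctagctggc

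In ME1 and PIR the core also contains TGANTCA, the site of AP-1 factors, so these letters belong to both motifs. TGANTCA itself was held by 4 of the 28 genes (14.3%) and by 6.81% of kept genes. These 2 sites are shown because of that overlap.
ME1 at chr6:83431169-83431198 (minus strand): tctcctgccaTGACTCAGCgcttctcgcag
PIR at chrX:15493288-15493317 (minus strand): gccgcgaagcGCTGAGTCAcggtgaggcta

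The remaining gene with the core was PGD, and TXNRD1, ME1 and KEAP1 held further copies of it, which made 15 matches in 12 windows. In GCLM and KEAP1 the core has the same bases, and it begins 34 and 31 bases before the start site. In MGST1 and PIR it lies after the start site, beginning at base 31 and base 27 counted from that site, as does the second copy in ME1, at base 12.

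Deposited values are RPKM, reads scaled to transcript length and to the mapped reads of the library, so levels can be compared between genes of different length. Each pair of values gives the wild type library first. The members were abundant: their median was 144 RPKM in the wild type library and 153 RPKM after knockdown, against 11.3 and 11.2 RPKM for all named genes. In the wild type library 19 of 33 members (57.6%) had at least 100 RPKM, as did 6.18% of named genes, and 9 of 33 had at least 500 RPKM (27.3%, against 1.25%). The 33 genes are 0.255% of the named genes and held 2.15% of their summed RPKM in wild type and 2.12% in knockdown cells. The 5 highest members in the wild type library, ALDH1A1, TXN, PRDX1, TKT and AKR1B1, made up 55.8% of the members' sum. In both libraries 31 of 33 lay in the upper 50% of named genes by level. CBR3 and GSTM3 were the exceptions.

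**Figure D1:**
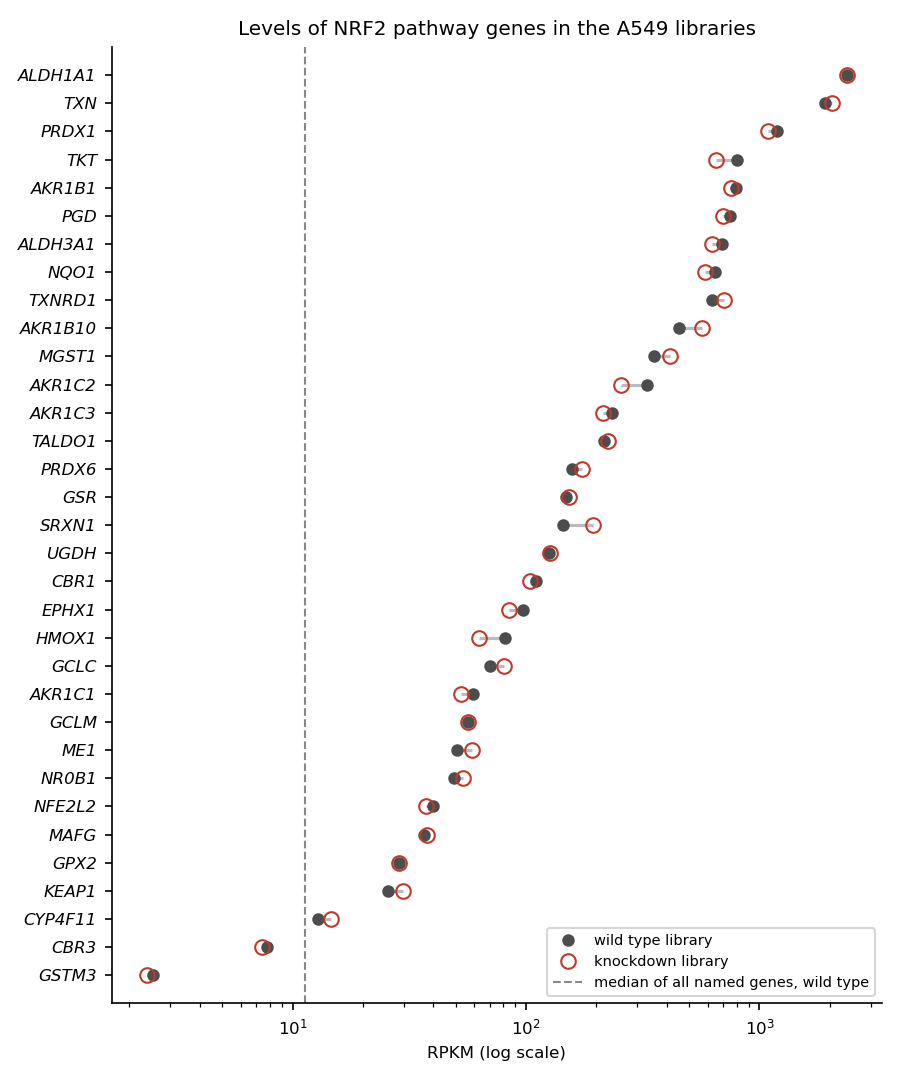
RPKM (log scale) of the 33 measured genes in the wild type (filled) and the knockdown library (open), in order of the wild type level; the dashed line is the wild type median of all named genes, 11.3 RPKM. Levels run from about 2.5 RPKM for GSTM3 to 2370 RPKM for ALDH1A1, and the symbols of a gene lie close together.

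Between the libraries the members differed little. Differences are given as the log2 change, log2((knockdown RPKM + 1) / (wild type RPKM + 1)), over the 12158 named genes whose mean reached 1 RPKM (kept genes), which include all 33 measured members. The median of the members was 0.002 and that of all kept genes 0.01, and the median size of the change was 0.13 and 0.15. The log2 change was above 0 for 17 members and below 0 for 16, while 52.1% of kept genes were above 0 and 47.9% below. No member was 1.5-fold higher or lower (0 of 33 each way), where the background was 1.65% of kept genes higher and 3.2% lower. At 2-fold the counts were also 0 and 0, against 0.65% and 0.724%. At 1.2-fold, a size chosen after the values were seen, SRXN1 and AKR1B10 were higher (2 of 33, 6.06%, background 12.4%), and TKT, HMOX1 and AKR1C2 were lower (3 of 33, 9.09%, background 14.1%). Neither share was above that of all kept genes. Among kept genes averaging 20 RPKM or more, where 30 of the members lie, the background at 1.2-fold was 11.5% higher and 8.73% lower. Beside it stood 6.67% and 10.0% of the members, so the lower share was slightly above this background. With so few members these shares are no result about the list.

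The directions depend on how the libraries are scaled. The summed RPKM over all lines was 1.02e+06 and 1.17e+06, and rescaling to equal sums shifts the median of all kept genes by -0.18. Under that scaling 6 members were above 0 and 27 below, while the median of all kept genes was -0.17. At 1.2-fold 0 of 33 members were higher and 13 lower, beside 474 and 4001 of the 12158 kept genes. The shift is thus that of the whole table and not of the members alone. The named genes alone summed in the knockdown library to 100% of their wild type sum. The excess over all lines therefore lies almost wholly in lines without a gene name, which were left out. With equal sums over named genes only, the counts of members at 1.2-fold were 2 and 3, as with the deposited values. A member called higher is thus so relative to the deposited scale, and MAFG, GCLM, GSR, TXN, TXNRD1, PRDX6, TALDO1, ALDH1A1, UGDH, CYP4F11 and NR0B1 fall below 0 when all lines are given equal sums.

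**Figure D2:**
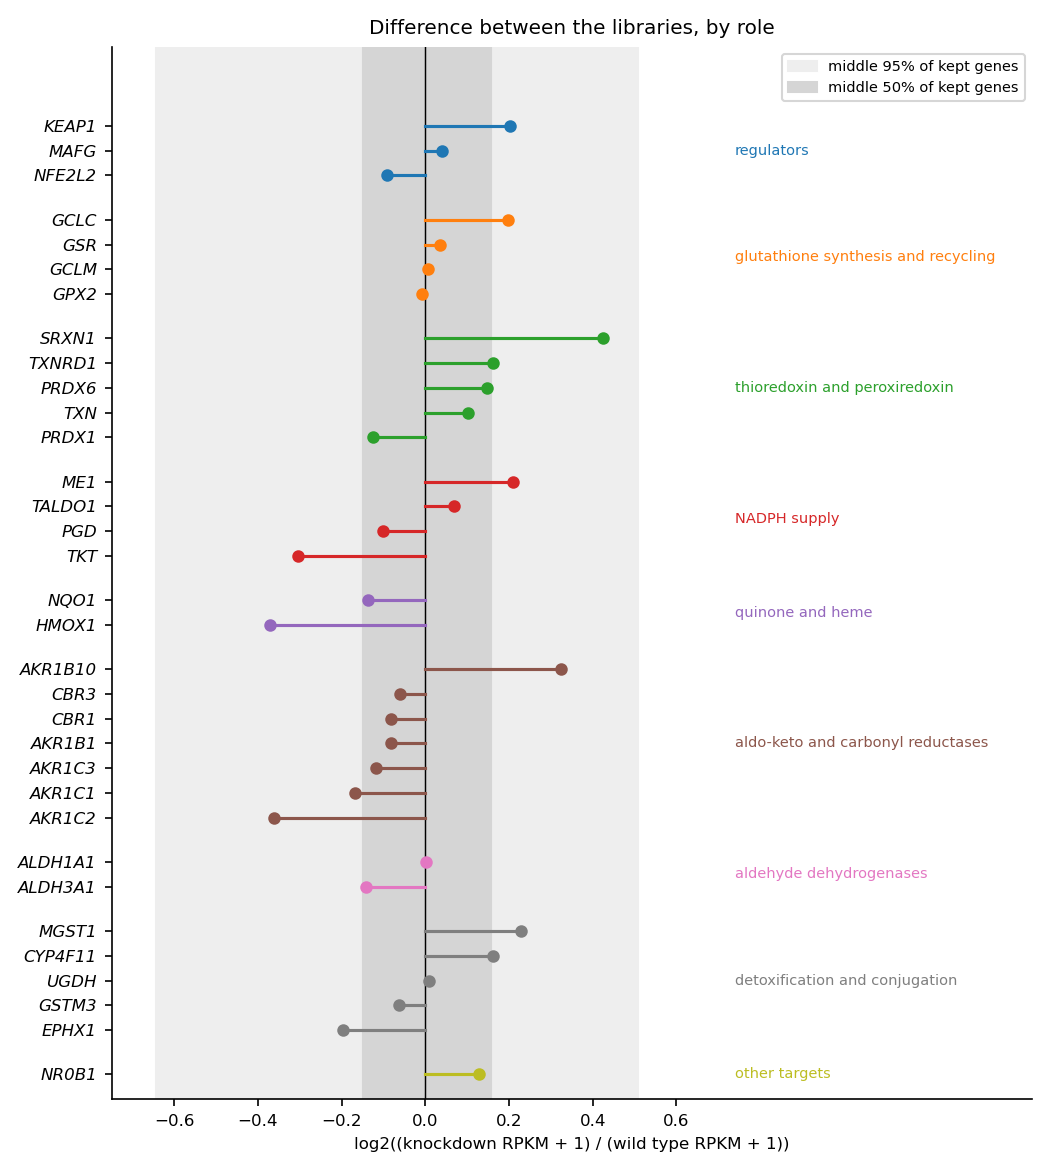
Log2 change of the 33 genes (horizontal axis, with a pseudocount of 1), grouped by role; bands mark the middle 50% (-0.15 to 0.16) and the middle 95% (-0.64 to 0.51) of the 12158 kept genes. All 33 lie inside the wider band, and 20 lie inside the narrower one, with 5 below it and 8 above it.

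The regulators were expressed at moderate levels and differed little. NFE2L2 (chromosome 2, 177227595 to 177392697, minus strand; GENCODE release 29, GRCh38, as for the positions that follow) had 39.9 RPKM in the wild type and 37.4 RPKM in the knockdown library, a log2 change of -0.09. Its annotated span holds 3 short RNA genes on the same strand. Whether they overlap its exons, or whether their reads, if any, entered its value, was not tested. KEAP1 (chromosome 19, 10486120 to 10503741, minus strand) had 25.7 and 29.8 RPKM, a log2 change of 0.20, or 0.01 with equal sums over all lines. MAFG, the small MAF partner, had 36.6 and 37.7 RPKM. All 3 lie well under the median of the members, at wild type ranks 2220, 3384 and 2412 of the named genes. The ratio of KEAP1 to NFE2L2, which does not depend on the scaling of a library, was 0.645 in wild type and 0.796 in knockdown cells.

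Of 15 further regulators, 13 were measured, with 10 above 0, 3 below 0 and a median log2 change of 0.10. Among kept genes 52.1% were above 0 and 47.9% below. The tally was the opposite with equal sums over all lines, 3 above 0 and 10 below, with a median of -0.10, beside -0.17 for all kept genes. MAFF, an inducible small MAF gene, was the only one past 1.5-fold on the deposited scale, at 6.91 and 3.79 RPKM and a log2 change of -0.72. With a pseudocount of 5 its log2 change was -0.44, under that size. On the deposited scale 3.2% of kept genes were at least 1.5-fold lower. MAFK, the third small MAF gene, had 62.6 and 60.7 RPKM. BACH1, the repressor that competes for the same element, had 5.94 and 7.55 RPKM, and GSK3B, a kinase that marks NRF2 for KEAP1-independent degradation, had 12.5 and 16.6 RPKM. Both were thus past 1.2-fold on the deposited scale, as was NFE2L3, a relative of NRF2, at 10.4 and 13.5 RPKM. The background at 1.2-fold higher was 12.4% of kept genes. The ligase subunits CUL3 and RBX1 had 22.6 and 24.2 RPKM and 50.7 and 52.0 RPKM. SQSTM1, the autophagy adaptor p62 that binds KEAP1, was the most abundant of the list at 292 and 313 RPKM, and NFE2L1, another relative of NRF2, had 77.3 and 71.4 RPKM. DPP3 and PALB2, both known to bind KEAP1, had log2 changes of 0.06 and 0.14. BTRC, the ligase adaptor that acts after GSK3B, had 6.06 and 6.73 RPKM, and HMBOX1 had 5.78 and 6.34 RPKM. BACH2 and NFE2 had no line.

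In the glutathione group GCLM, GSR and GPX2 had nearly the same values in both libraries. GCLC and GCLM encode the catalytic and the modifier subunit of glutamate-cysteine ligase, which makes the precursor of glutathione. GCLC had 70.0 and 80.4 RPKM (log2 change 0.20, or 0.00 with equal sums over all lines), and GCLM had 56.3 and 56.5 RPKM. Within a library GCLC was 1.24 times GCLM in the wild type and 1.42 times in the knockdown. GSR, which reduces oxidised glutathione, was the highest of the group at 149 and 153 RPKM. GPX2, a glutathione peroxidase of epithelial cells, had 28.7 and 28.5 RPKM.

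The thioredoxin and peroxiredoxin genes held the largest increase of the members. SRXN1 (chromosome 20, 646615 to 653370, minus strand), the sulfiredoxin that repairs overoxidised peroxiredoxins, had 144 RPKM in the wild type and 194 RPKM in the knockdown library. Its log2 change was 0.43 (0.23 with equal sums over all lines), and 10.6% of kept genes, or 8.22% of the 815 kept genes averaging 100 RPKM or more, lay at least as far from 0. PRDX1, a peroxiredoxin that sulfiredoxin acts on, went the other way, at 1190 and 1090 RPKM. PRDX1 was therefore 8.26 times SRXN1 in the wild type and 5.63 times in the knockdown library. TXN, the small disulfide reductase thioredoxin, had 1900 and 2040 RPKM. TXNRD1, the selenoenzyme that reduces it with NADPH, had 629 and 703 RPKM, so that the ratio of TXN to TXNRD1 was 3.02 and 2.90. PRDX6, which uses glutathione in place of thioredoxin, had 157 and 174 RPKM. In this group 4 of 5 were above 0, beside 52.1% of kept genes. Of these, TXN, TXNRD1 and PRDX6 fall below 0 with equal sums over all lines.

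Among the pentose phosphate and NADPH enzymes, TKT and PGD were abundant and ME1 was under the median of the members, and directions were mixed. TKT (chromosome 3, 53224707 to 53256052, minus strand), the transketolase of the pentose phosphate pathway, had 805 RPKM in the wild type and 652 RPKM in the knockdown library. This drop of 153 RPKM was the largest absolute difference of any member on the deposited scale, with a log2 change of -0.30 (-0.50 with equal sums over all lines). PGD, which makes NADPH in the oxidative arm, had 751 and 700 RPKM, and TALDO1, the transaldolase, had 215 and 225 RPKM. The ratio of TKT to TALDO1, which work side by side in the non-oxidative arm, was 3.75 and 2.90. ME1, the cytosolic malic enzyme, had 50.7 and 58.9 RPKM.

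Of 15 other pentose phosphate and NADPH enzymes outside the members, 14 were measured, 6 above 0 and 8 below, with a median log2 change of -0.03. Of these, 1 was above 0 and 13 below with equal sums over all lines, where the median of all kept genes was -0.17. MTHFD2, an enzyme of mitochondrial folate metabolism, had 156 and 142 RPKM. The lowest changes were those of the isocitrate dehydrogenases IDH2 (34.5 and 22.9 RPKM, log2 change -0.57) and IDH1 (99.3 and 71.1 RPKM, log2 change -0.48). RPIA, the ribose phosphate isomerase, and ME2, a mitochondrial malic enzyme, had the highest, 0.27 and 0.17. IDH2 passed 1.5-fold with a pseudocount of 0.1 (-0.59). With equal sums over all lines IDH2 (-0.76) and IDH1 (-0.67) were past 1.5-fold lower, as were 781 of the 12158 kept genes. IDH1 is also counted among the further NRF2 targets below.

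NQO1 and HMOX1 are widely used readouts of NRF2 activity. NQO1 (chromosome 16, 69706996 to 69726951, minus strand), which reduces quinones by a pair of electrons at once, had 643 RPKM in the wild type and 584 RPKM in the knockdown library, a log2 change of -0.14. HMOX1 (chromosome 22, 35380361 to 35394214, plus strand), which opens the heme ring, had 81.4 and 62.7 RPKM. At -0.37 its log2 change was the lowest of the members, and 13.9% of kept genes lay at least as far from 0. With equal sums over all lines it was -0.57. NQO1 exceeded HMOX1 by 7.90 times in the wild type and 9.32 times in the knockdown library. The next steps of heme breakdown, the biliverdin reductases BLVRB (329 and 255 RPKM, log2 change -0.37) and BLVRA (59.5 and 50.1 RPKM, log2 change -0.24), were lower as well. They are named for that role after their values were seen. BLVRB was past 1.2-fold lower and BLVRA was not, where the background was 14.1% of kept genes.

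The aldo-keto and carbonyl reductases, which reduce aldehydes and ketones with NADPH, had 6 of 7 members below 0, beside 47.9% of kept genes. Those 6 include the near-identical AKR1C genes, whose directions may not be separate. The member above 0 was AKR1B10 (chromosome 7, 134527592 to 134541408, plus strand), a reductase of retinal and lipid aldehydes. It had 451 RPKM in the wild type and 565 RPKM in the knockdown library. Its log2 change was 0.32 (0.13 with equal sums over all lines), as far from 0 as 18.4% of kept genes and 12.6% of those averaging 100 RPKM or more. AKR1B1, the aldose reductase encoded nearby on the opposite strand, had 796 and 752 RPKM, so its excess over AKR1B10 was 1.77-fold and 1.33-fold. The coding sequences of AKR1B1 and AKR1B10 are 76.2% identical and share no 50-base word. Reads of 50 bases or more in the coding part can thus be told apart between this pair. AKR1B15, a listed NRF2 target outside the members, had 13.2 and 16.2 RPKM, a log2 change of 0.27. Its sequence was not compared with that of AKR1B10, and it is named here after its value was seen. CBR1 had 110 and 104 RPKM, and CBR3, its neighbour on chromosome 21, had 7.76 and 7.40 RPKM, with ratios of 14.2 and 14.1.

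The AKR1C genes, which act on steroids and other ketones, lie side by side on chromosome 10. AKR1C2 (4987400 to 5018031, minus strand) had 329 and 256 RPKM, a log2 change of -0.36, with 14.7% of kept genes at least as far from 0. AKR1C3 had 233 and 214 RPKM and AKR1C1 had 59.5 and 52.8 RPKM. All 3 were lower in the knockdown library. These values are uncertain because the genes are near-identical. The coding sequences of AKR1C1 and AKR1C2, 972 bases each, differ at 19 positions (98.0% identity), and 51.8% of the 50-base words of AKR1C1 occur unchanged in AKR1C2. AKR1C3 is 91.5% identical to AKR1C1 and 91.0% to AKR1C2. The sources used here do not say how reads that fit more than 1 of them were assigned, so the ratio of AKR1C2 to AKR1C1, 5.54 and 4.85, may owe part of its size to that assignment, which was not tested. The stretch of 60 coding bases in which AKR1C1 and AKR1C2 differ most, bases 103 to 162 counted from the start codon, is printed from GENCODE release 29 transcripts, 5′ to 3′. Capitals mark the 15 positions that are not the same in all 3 genes, of which 10 differ between AKR1C1 and AKR1C2.
AKR1C1: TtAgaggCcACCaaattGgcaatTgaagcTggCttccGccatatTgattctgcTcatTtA
AKR1C2: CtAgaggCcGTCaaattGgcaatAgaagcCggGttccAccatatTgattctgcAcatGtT
AKR1C3: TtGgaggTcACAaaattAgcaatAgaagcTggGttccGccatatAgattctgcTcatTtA

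More than 50% of the 19 differences between AKR1C1 and AKR1C2 thus fall in this single stretch, and the rest of the coding sequence offers few bases to separate them. AKR1C4 had no line in the table.

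The aldehyde dehydrogenases were very abundant. ALDH1A1 (chromosome 9, 72900662 to 73080442, minus strand), which oxidises retinal and other aldehydes, was the highest member, at 2370 RPKM in each library and ranks 28 and 26 of all named genes. Its log2 change was 0.00, or -0.20 with equal sums over all lines. ALDH3A1, which oxidises aromatic and fatty aldehydes, had 689 and 624 RPKM. ALDH3A2, a fatty aldehyde dehydrogenase outside the members, had 155 and 115 RPKM.

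The enzymes of detoxification and conjugation had widely different levels. MGST1, a membrane-bound glutathione transferase, had 354 and 415 RPKM, a log2 change of 0.23 (0.03 with equal sums over all lines). UGDH, which makes the UDP-glucuronate used for conjugation, had 126 and 127 RPKM. EPHX1, the microsomal epoxide hydrolase, had 96.7 and 84.2 RPKM, a log2 change of -0.20. CYP4F11, a fatty acid hydroxylase, had 12.9 and 14.6 RPKM. GSTM3, a cytosolic glutathione transferase, was the lowest member in both libraries at 2.52 and 2.37 RPKM, under the level of 83.2% of named genes. NR0B1, the orphan receptor DAX1, which is known to be high in KEAP1-mutant lung cancer cells, had 49.2 and 53.9 RPKM.

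The loci of OSGIN1 and PIR carry the values of 2 genes each. The locus of NECAB2 and OSGIN1, an oxidative stress-induced growth inhibitor, had 24.7 and 37.7 RPKM. Its log2 change on the deposited scale was 0.59, larger than that of any member with its own line. Other pseudocounts and scalings were not tried for it. The locus of FIGF (now VEGFD) and PIR, the iron-binding protein pirin, had 62.8 and 59.7 RPKM. Which of the genes in a locus gave the reads was not tested, and both loci were left out of the counts.

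**Figure D3:**
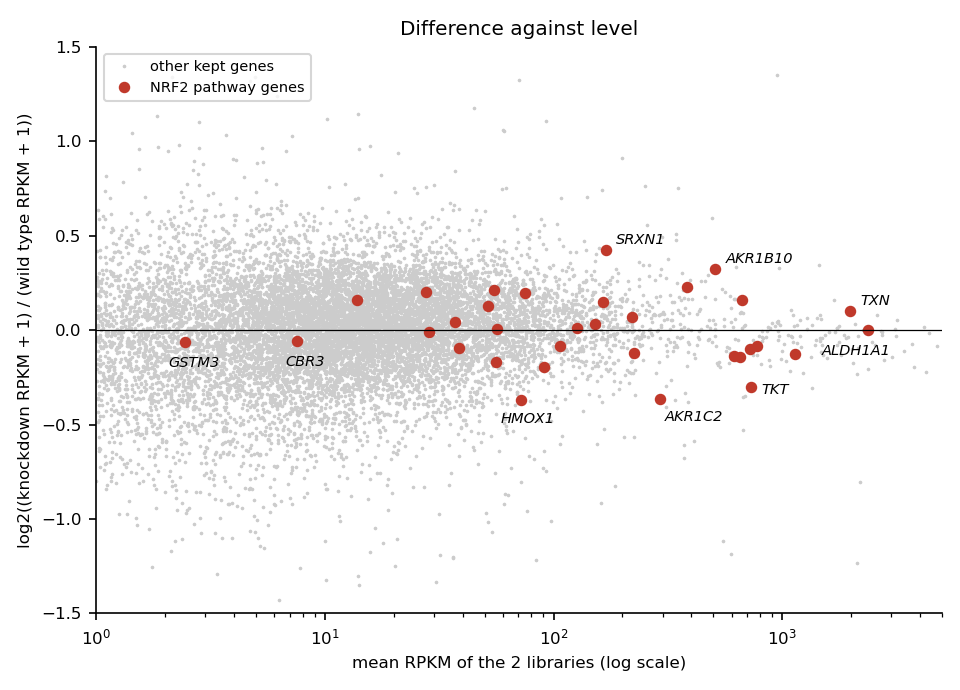
Log2 change (vertical axis, pseudocount 1) against the mean RPKM of the 2 libraries (horizontal axis, log scale) for the 33 NRF2 pathway genes (red) and the other kept genes (grey); 111 kept genes lie outside the plotted range. At high levels the grey points draw closer to 0, and SRXN1, AKR1B10, HMOX1, AKR1C2 and TKT are the members past 1.2-fold.

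**Figure D4:**
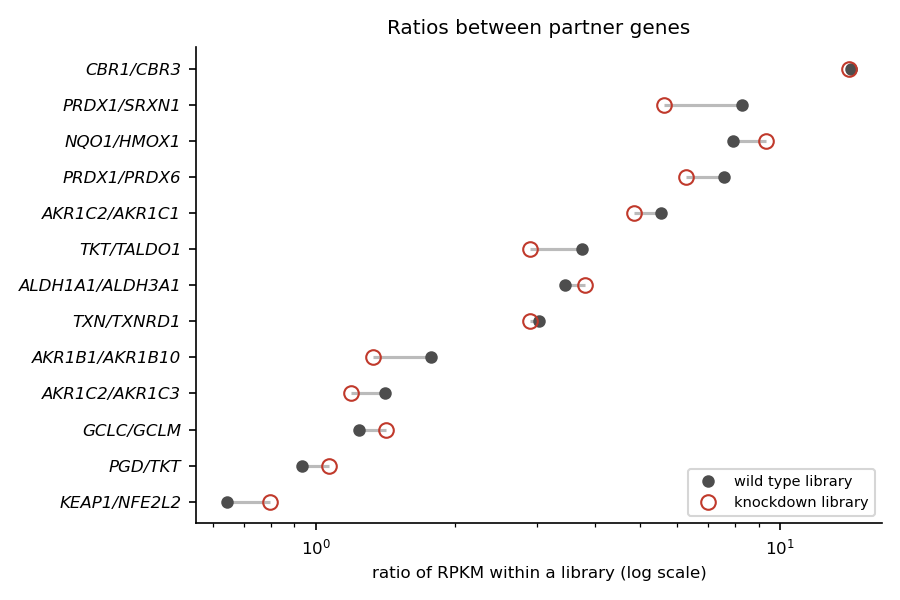
Ratio of the RPKM of partner genes within each library (log scale), wild type filled and knockdown open; a ratio does not depend on how a library is scaled. PRDX1 to SRXN1 (8.26 and 5.63) and AKR1B1 to AKR1B10 (1.77 and 1.33) are set far apart, while CBR1 to CBR3 (14.2 and 14.1) coincide.

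Of 36 listed NRF2 targets outside the members, 31 were measured, with 18 above 0, 13 below 0 and a median log2 change of 0.05. At 1.2-fold 4 were higher and 4 lower, beside 12.4% and 14.1% of kept genes, and on the deposited scale 0 passed 1.5-fold in either direction. With equal sums over all lines 5 were above 0 and 26 below, while the median of all kept genes was -0.17. Under that scaling IDH1 (-0.67) and ALDH3A2 (-0.62) were past 1.5-fold lower, as were 781 of the 12158 kept genes. The ferritin chains FTL and FTH1, which store iron, were the most abundant at 10300 and 9860 RPKM and 4590 and 3940 RPKM, ranks 2 and 7 of the named genes in the wild type library. The highest log2 changes were those of the drug efflux transporters ABCC2 (72.7 and 94.2 RPKM, 0.37) and ABCC5 (7.51 and 9.86 RPKM, 0.35). The lowest were those of IDH1 and ALDH3A2, -0.48 and -0.43. ABCC2 and ABCC5 were also above 0 with equal sums over all lines, at 0.17 each, but under 1.2-fold. SLC7A11, which imports cystine for glutathione, had 39.7 and 35.1 RPKM, chosen here for that role after its value was seen.

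Antioxidant enzymes that are not classical NRF2 targets were listed beside them. Of 25, 22 were kept, with 15 above 0, 7 below 0 and a median of 0.07, beside 52.1% and 47.9% of kept genes. With equal sums over all lines 6 were above 0 and 16 below, where the median of all kept genes was -0.17. GLRX2, a glutaredoxin found in mitochondria, passed 1.5-fold, at 28.3 and 44.5 RPKM and a log2 change of 0.64, but not with a pseudocount of 5 (0.57) or with equal sums over all lines (0.44). SESN2, a stress-induced sestrin, had 5.06 and 7.65 RPKM, a log2 change of 0.51, and passed that size with a pseudocount of 0.1 (0.59). SOD2, the mitochondrial superoxide dismutase, had 66.5 and 51.4 RPKM, and GPX4, which reduces lipid peroxides, had 214 and 177 RPKM. The most abundant were PRDX3 (245 and 264 RPKM) and SOD1 (242 and 246 RPKM).

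Members with and without the element core in their window had overlapping changes. The 10 measured members that hold TGACNNNGC ranged from -0.20 to 0.23 with a median of 0.08, and the 16 without it from -0.36 to 0.43 with a median of -0.03. A window of this length leaves out more distant elements, so no match says only that these letters are not within it.

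The targeted gene and the identity of the cells were checked once. MYOCD had 0.881 and 0.400 RPKM, near the floor of the table and under the mean kept here. The epithelial keratins KRT8 and KRT18 had 1550 and 1520 RPKM and 1780 and 1680 RPKM, while CDH1, KRT19 and EPCAM were lower, with wild type levels of 23.8, 7.70 and 2.24 RPKM. CDKN2A, which A549 is known to have lost, had 0.221 and 0.725 RPKM. Of 15 markers of fibroblasts, leukocytes and endothelial cells, 3 (COL1A1, LYZ and CD14) had a line, with summed levels of 2.76 and 2.41 RPKM for fibroblasts and 3.71 and 4.10 RPKM for leukocytes, and PTPRC, DCN, PECAM1 and VWF had none. The table gives no read counts, so the depth behind each value is unknown, and no interval could be set.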

How the data were processed

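RNA-seq of 2 A549 libraries was used, 1 per group. The authors deposited RPKM values, 1 per locus and library, computed before deposit. The programs Cufflinks 2.2.1 and TopHat2 2.0.10, with the builds BDGP5 and GRCh38.p12, are listed without a role per the submitters' processing notes. For annotation, read filters and strand use nothing is given in the sources used here. Of the 2212 lines below 2 RPKM and above 0 in each library, no more than 29 had log2 ratios within a window of 0.01, so no steps of single reads were seen and depth is unknown.

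Lines without a gene name (1909 of 14952) were left out and lines with the same name were summed. Genes whose mean reached 1 RPKM were kept, and log2 changes used a pseudocount of 1. Counts at 1.5-fold and 2-fold and the lists were planned. The count at 1.2-fold and the sets from 20 and 100 RPKM were added after the values were seen. Members and lists were chosen with earlier results of these data known. All members and further regulators are named, and in each other list the 2 highest and 2 lowest changes and the 2 highest levels. Of the genes this rule takes, 1 is not reported here. Genes outside this rule are marked as such or belong to a marker check. Promoter windows are from RefSeq. Coding sequences are the longest complete ones of GENCODE release 29, aligned in pairs. Whether the fold sizes exceed the spread between replicate libraries was not tested, because each group has 1 library. Python 3.11.15, numpy 2.4.6 and pandas 2.3.3 were used. Alternatives were other pseudocounts, scalings, filters, handling of repeated names and gene sets.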

Additional observations from a re-analysis of the deposited data

How the results depend on the processing

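No paired analysis was possible because each group has 1 library, and for the same reason no library could be left out. No member passed 1.5-fold in either direction under the other pseudocounts, scalings, filters, handling of repeated names or gene sets. Adding the shared loci of OSGIN1 and PIR, chosen after the values were seen, gave 1 locus past 1.5-fold higher on the deposited scale. Other pseudocounts and scalings were not tried for these loci. With equal sums over all lines the members past 1.2-fold were 0 higher and 13 lower, beside 474 and 4001 of the 12158 kept genes. The median log2 change of the members was then -0.197 and that of all kept genes -0.17. The median of the members was -0.005 with equal sums over named genes and -0.009 with the median of all kept genes set to 0. It was 0.004 where the mean had to reach 5 or 20 RPKM. The members' share of summed RPKM in the wild type and knockdown library was 2.18% and 2.15% from 5 RPKM, 2.41% and 2.37% from 20 RPKM, 2.51% and 2.5% among protein-coding genes, and 2.16% and 2.14% with the shared loci. These shares move because the genes summed differ. With equal sums over all lines, which shifts the median of all kept genes by -0.18, 11 of 33 members changed the side of 0. Pseudocounts of 0.1 and 5 changed the side of 0 for 0 of 33 members. The missing depth limits most the low genes, of which GSTM3 and CBR3 are the lowest members.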
